A study of Homo sapiens with 4 samples.

Results

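The genes described here encode the enzymes that copy the nuclear genome: the subunits of DNA polymerase α and its primase (POLA1, POLA2, PRIM1 and PRIM2), of polymerase δ (POLD1, POLD2 and POLD3) and of polymerase ε (POLE, POLE2 and POLE3). They were chosen by name with earlier results of these data known, as were the gene lists set beside them. All 10 were found among the 25066 genes of the table. They were measured by RNA sequencing of NUDUL1, a line from a human diffuse large B cell lymphoma of the germinal center type in which a single clone carried doxycycline-inducible Cas9 and was transduced with the thromboxane receptor Tbxa2r. Control cells expressed a control sgRNA, GNA13-deficient cells expressed an sgRNA against GNA13, and each genotype had 1 sgRNA and 2 libraries. Both genotypes were given U46619, a stable thromboxane-A2 analog that activates the receptor, at 10 nM for 24 h, so the comparison asks how loss of Gα13 altered expression under stimulation and held no untreated cells.

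At a replication fork, polymerase α-primase lays down a short RNA-DNA primer. Polymerase ε then extends the leading strand, and polymerase δ extends and completes the fragments of the lagging strand. Expression of these genes generally rises as cells pass from G1 into S phase, when E2F transcription factors are active, and in germinal center B cells and the lymphomas derived from them rapid division makes this machinery abundant.

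The total of mapped reads was between 29209544 and 31537955 per library, and the members had between 381 and 9279 reads each, so counting error was small for all of them. The targeted gene, GNA13, stood at log2 values of 12.46 and 12.45 in control, and the libraries labelled GNA13-deficient had 13.10 and 13.11. The transcript was thus higher, not lower, in the targeted cells, so every direction given here rests on the labels. A transcript level does not show whether the protein was lost, and protein was not measured in these libraries. In separate assays of NUDUL1, the paper reports that cells with the GNA13 sgRNA outcompeted untransduced cells when U46619 was present. All 10 B cell marker genes examined were detected in every library, although BCL6, a germinal center transcription factor, fell by 2.49 on the log2 scale. The 4 T cell markers in the table had 0 to 1 reads in all per library. The 5 myeloid markers together had 224 and 246 reads in the control libraries and 25 and 28 in the GNA13-deficient libraries, against at least 75106 for the B cell markers, and their part in any result was not tested.

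Of the 10 members, 9 rose in the libraries labelled GNA13-deficient and none fell, with an adjusted p under 0.05 from limma, against 13.1% of the 16945 genes tested that rose, 16.6% that fell and 29.7% that passed in either direction. In the fit of the 8473 genes at or above the median level, 9 members rose and 1 fell, against 26.3% of those genes that rose. The median log2 difference over the members was 0.49, that is, GNA13-deficient minus control, against -0.02 over all genes tested. POLA1, the catalytic subunit of polymerase α, rose most except with quantile normalization, by 2.14-fold (95% interval 1.87 to 2.45), and POLE2 and PRIM1 followed at 1.89-fold and 1.78-fold. POLD2, the second subunit of polymerase δ, was the exception, at 0.857 of the control level, which did not pass the test (unadjusted p = 0.0450 from limma, and the only member lower at an unadjusted p under 0.05). All 10 members passed the filter on low values, which required a value above 0 in at least 2 of the 4 libraries. The values of all 10 did not overlap between genotypes, which with 2 libraries in each was also true of 65.3% of all genes tested (31.3% higher and 34.0% lower).

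**Figure D1:**
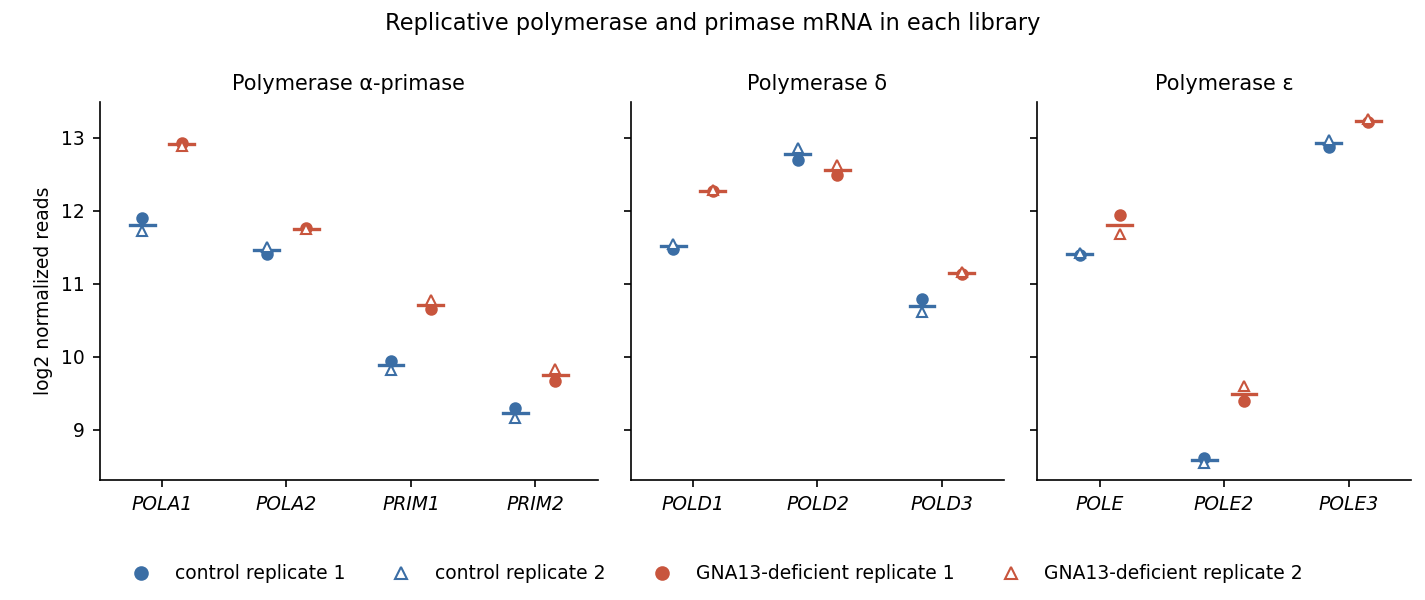
Log2 normalized reads (vertical axis) of each subunit in each library, by complex, with control libraries in blue, GNA13-deficient libraries in red, filled circles for replicate 1, open triangles for replicate 2 and horizontal bars for the genotype means. The red points lie above the blue points for every gene except POLD2, where they lie below.

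Whether promoter letters bear on the differences was not tested. The promoter sequences of the members are described here. They are RefSeq windows on GRCh38.p14, from 250 bases before to 50 bases after a gene's start, and 9 of the 10 members had at least 1, for 13 windows in all. POLD3 had none in the table. The windows were searched on both strands for the E2F consensus, spelled as TTTCCCGC, TTTCGCGC, TTTGCCGC or TTTGGCGC, for the letters CCAAT, and for CACGTG, the E-box that MYC can bind. E2F letters were found in 4 of the 13 windows (those of POLA1, POLA2, POLE and POLE2). The share was 3.31% of all 35116 windows and 4.1% of the windows of genes in the table. CCAAT was found in 4 of the 13 windows (those of POLA1, PRIM1, POLD2 and POLE), no larger a share than the 34.6% of all windows. CACGTG was found in 1 window, of POLE3, against 7.26% of all windows. The match begins 137 bases before the start in POLA1, 5 bases before it in POLE2, 18 in POLE and 53 in POLA2. E2F letters were not in the window of POLD2, nor in those of PRIM1, PRIM2, POLD1 and POLE3, which rose. Outside the 10 members, the window of POLE4, a polymerase ε subunit whose difference did not pass the test, had E2F letters beginning 31 bases before the start. The windows of POLD4, a polymerase δ subunit that fell, had none. A match is a description of the letters, and occupancy was not measured. Below, the 4 member windows with E2F letters and that of POLD2 are given 5′ to 3′ on the gene's strand. Those of PRIM1, PRIM2, POLD1 and POLE3, which rose without E2F letters, are not printed. E2F and CCAAT matches on either strand are in capitals, and in POLE the CCAAT match overlaps its own reverse complement.
POLA1 promoter, chrX:24693668-24693967, plus strand: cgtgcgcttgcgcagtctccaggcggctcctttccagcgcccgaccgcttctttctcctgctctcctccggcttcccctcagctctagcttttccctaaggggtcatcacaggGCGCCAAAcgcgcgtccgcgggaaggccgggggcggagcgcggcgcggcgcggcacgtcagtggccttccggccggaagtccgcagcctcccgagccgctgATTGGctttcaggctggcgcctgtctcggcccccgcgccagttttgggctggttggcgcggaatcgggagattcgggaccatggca
POLE2 promoter, chr14:49688165-49688464, minus strand: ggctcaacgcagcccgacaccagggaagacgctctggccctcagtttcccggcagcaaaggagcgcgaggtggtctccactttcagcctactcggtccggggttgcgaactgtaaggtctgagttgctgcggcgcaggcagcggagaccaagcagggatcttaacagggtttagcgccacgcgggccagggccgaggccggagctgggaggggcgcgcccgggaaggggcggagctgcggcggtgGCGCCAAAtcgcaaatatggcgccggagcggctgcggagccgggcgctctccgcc
POLE promoter, chr12:132687293-132687592, minus strand: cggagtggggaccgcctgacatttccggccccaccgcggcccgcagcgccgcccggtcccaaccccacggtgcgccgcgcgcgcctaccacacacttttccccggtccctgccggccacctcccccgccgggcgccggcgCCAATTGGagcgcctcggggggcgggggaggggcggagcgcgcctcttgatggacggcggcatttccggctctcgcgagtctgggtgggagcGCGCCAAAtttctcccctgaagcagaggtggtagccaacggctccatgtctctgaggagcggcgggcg
POLA2 promoter, chr11:65261712-65262011, plus strand: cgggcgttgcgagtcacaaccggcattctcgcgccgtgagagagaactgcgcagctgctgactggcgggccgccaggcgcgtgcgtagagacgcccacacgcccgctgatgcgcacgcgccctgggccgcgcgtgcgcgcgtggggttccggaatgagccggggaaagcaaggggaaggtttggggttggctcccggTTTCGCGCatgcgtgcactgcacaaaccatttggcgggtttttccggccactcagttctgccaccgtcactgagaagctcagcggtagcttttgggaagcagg
POLD2 promoter, chr7:44123499-44123798, minus strand: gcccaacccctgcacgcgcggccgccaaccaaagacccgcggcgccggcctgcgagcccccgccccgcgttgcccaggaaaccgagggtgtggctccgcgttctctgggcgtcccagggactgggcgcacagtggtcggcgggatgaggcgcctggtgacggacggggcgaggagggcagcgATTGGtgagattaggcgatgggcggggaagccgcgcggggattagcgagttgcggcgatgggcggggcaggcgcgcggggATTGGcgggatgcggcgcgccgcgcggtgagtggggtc

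Polymerase α-primase rose in all 4 of its subunits, by amounts that ranged from 0.29 for POLA2 to 1.10 for POLA1 on the log2 scale. POLA1, which extends the primer with DNA (Entrez 5422; GRCh37 chrX:24711990-25015103, plus strand), had log2 values of 11.90 and 11.73 in the control libraries and 12.93 and 12.89 in the GNA13-deficient libraries. The gap between the nearest libraries of the genotypes, 0.99, was far larger than the 0.17 and 0.039 between replicates. The difference was 1.10 (standard error 0.08, adjusted p = 0.00171 from limma), and 4.01% of the genes tested had a difference at least as high. POLA2, the accessory B subunit (Entrez 23649; chr11:65029384-65073430, plus strand), had 11.41 and 11.51 against 11.76 and 11.75. It was higher in both GNA13-deficient libraries by a small margin, at 0.29 with a standard error of 0.06 and an adjusted p of 0.0205 from limma. PRIM1, the catalytic subunit of primase that makes the RNA part of the primer (Entrez 5557; chr12:57124222-57146158, minus strand), had 9.95 and 9.82 against 10.65 and 10.78. Its difference was 0.83 (standard error 0.08, adjusted p = 0.00306 from limma). PRIM2, the large primase subunit, which carries an iron-sulfur cluster (Entrez 5558; chr6:57179603-57513376, plus strand), had 9.31 and 9.16 against 9.67 and 9.84, and limma put the difference at 0.52 with a standard error of 0.10 and an adjusted p of 0.0168. Its replicates differed by 0.15 and 0.17, so its groups were separated less clearly than those of PRIM1. The level of PRIM2 is uncertain because a pseudogene copy, PRIM2BP, is annotated inside the same locus and overlaps it over 640 exonic bases. PRIM2BP is not among the genes of the table, and how reads from it were counted is not known.

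Within the complex the subunits did not move in step. The log2 ratio of POLA1 to POLA2 was 0.49 and 0.22 in the control libraries and 1.17 and 1.14 in the GNA13-deficient libraries, a shift of 0.81. That of PRIM1 to PRIM2 went from 0.64 and 0.66 to 0.98 and 0.94. The ranges of both ratios were separate between genotypes, but an exact two-sided permutation test of 2 libraries against 2 cannot go below p = 0.333, the value obtained for each. Separate ranges are common with so few libraries: 65.3% of single genes tested had them, and the share among ratios of genes was not determined. Per length of the canonical transcript, POLA2 had the highest level in the control libraries, at 796 ± 37.8 normalized reads per kb (SD, n = 2), ahead of PRIM1 at 665 ± 41.0 and POLA1 at 657 ± 56.0, which overlapped each other, and PRIM2 at 358 ± 25.4. In the GNA13-deficient libraries POLA1 came first at 1406 ± 26.9, followed by PRIM1 at 1183 ± 70.7, POLA2 at 976 ± 4.78 and PRIM2 at 515 ± 41.9, with no overlap between neighbours. These levels depend on the annotated transcript being the one expressed.

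**Figure D2:**
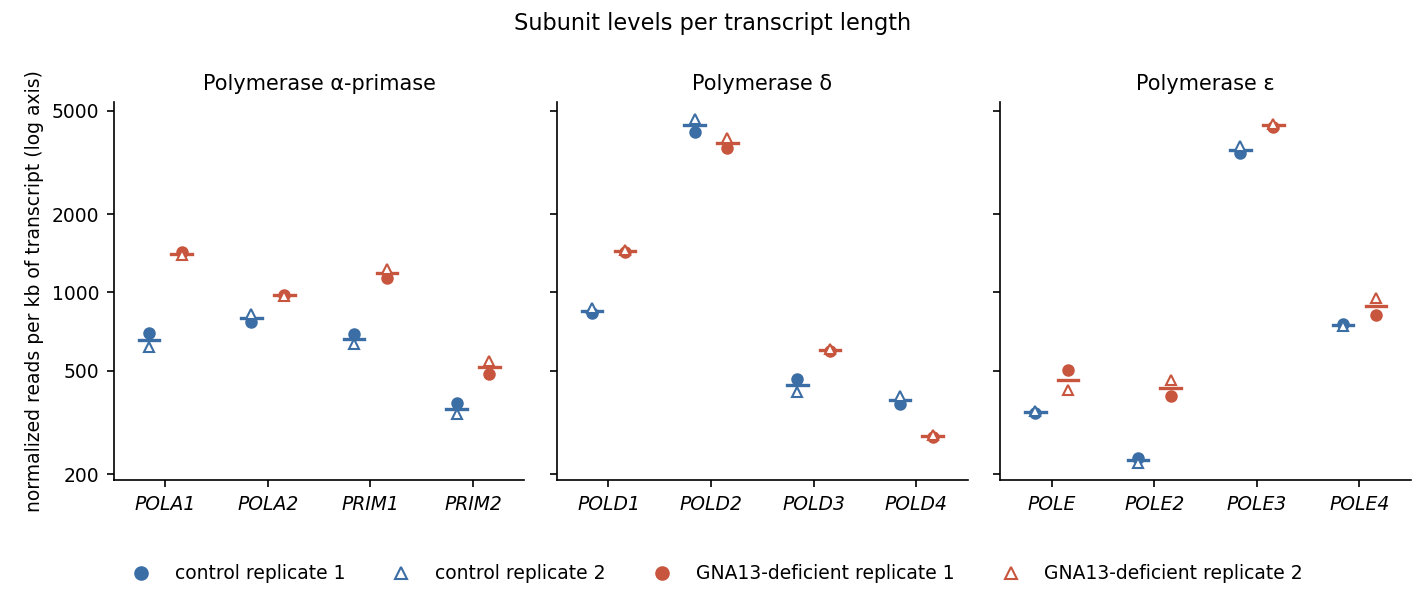
Normalized reads per kb of canonical transcript (vertical log axis) for each subunit and library, by complex and including POLD4 and POLE4, with control in blue, GNA13-deficient in red, filled circles for replicate 1, open triangles for replicate 2 and horizontal bars for genotype means. POLA1 lies below POLA2 in the control libraries and above it in the GNA13-deficient libraries, and POLD2 and POLE3 lie above the other subunits of their complexes in every library.

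In polymerase δ the members differed in sign, although the negative difference of POLD2 did not pass the test. POLD1, the catalytic and proofreading subunit, rose 1.70-fold (95% interval 1.54 to 1.87), POLD3 rose 1.36-fold, and POLD2 had a negative difference. POLD1 (Entrez 5424; chr19:50887461-50921275, plus strand) had log2 values of 11.48 and 11.55 in the control libraries and 12.27 and 12.29 in the GNA13-deficient libraries. Replicates differed by at most 0.067, and the limma difference, 0.76 with a standard error of 0.05 and an adjusted p of 0.00176, was the second clearest of the members by its p. POLD3, which binds the sliding clamp PCNA and also serves the translesion polymerase ζ (Entrez 10714; chr11:74204896-74380162, plus strand), had 10.79 and 10.62 against 11.14 and 11.17. The difference was 0.45 (standard error 0.08, adjusted p = 0.0134 from limma), with the control libraries less alike than the GNA13-deficient ones. POLD2, which bridges POLD1 and POLD3 and is likewise shared with polymerase ζ (Entrez 5425; chr7:44154230-44163957, minus strand), had 12.70 and 12.86 against 12.50 and 12.62. Both GNA13-deficient libraries were lower, by a gap of 0.077 between the nearest libraries, which is smaller than the 0.17 and 0.13 between replicates. The difference of -0.22 (standard error 0.08, 95% interval -0.44 to -0.0073) had an adjusted p of 0.110 from limma. This call depended on the setting, and those under which POLD2 passed as lower included quantile normalization (adjusted p = 0.0188), voom weights on recovered reads (adjusted p = 0.0230) and a filter at the median level (adjusted p = 0.0420). After centring of each library on its median its difference was -0.014, and without control replicate 2 it was -0.14.

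POLD4, the smallest subunit of polymerase δ and not among the 10, had log2 values of 9.30 and 9.40 in the control libraries and 8.88 and 8.91 in the GNA13-deficient libraries, and limma gave a fall, of -0.46 with a standard error of 0.08 and an adjusted p of 0.0142. This call was less firm than that of POLD1: POLD4 did not pass without the filter (adjusted p = 0.0510 from limma), without the variance trend (adjusted p = 0.0548) or with median centring, where its difference was -0.25 (adjusted p = 0.0863). It was lower under every setting tried. The log2 ratio of POLD1 to POLD2 was -1.22 and -1.32 in the control libraries and -0.23 and -0.34 in the GNA13-deficient libraries, and that of POLD1 to POLD4 went from 2.18 and 2.14 to 3.39 and 3.37. Per transcript length POLD2 remained the most abundant subunit, at 4383 ± 354 normalized reads per kb (SD, n = 2) in control and 3755 ± 229.9 in GNA13-deficient libraries. POLD1 had 851 ± 27.9 and 1445 ± 13.5, POLD3 441 ± 37.1 and 601 ± 7.95, and POLD4 386 ± 18.7 and 281 ± 5.09. The order was the same in both genotypes, and POLD3 and POLD4 lay closest together in the control libraries. A processed pseudogene of POLD2 is annotated on chromosome 5, and its share of the reads is not known.

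**Figure D3:**
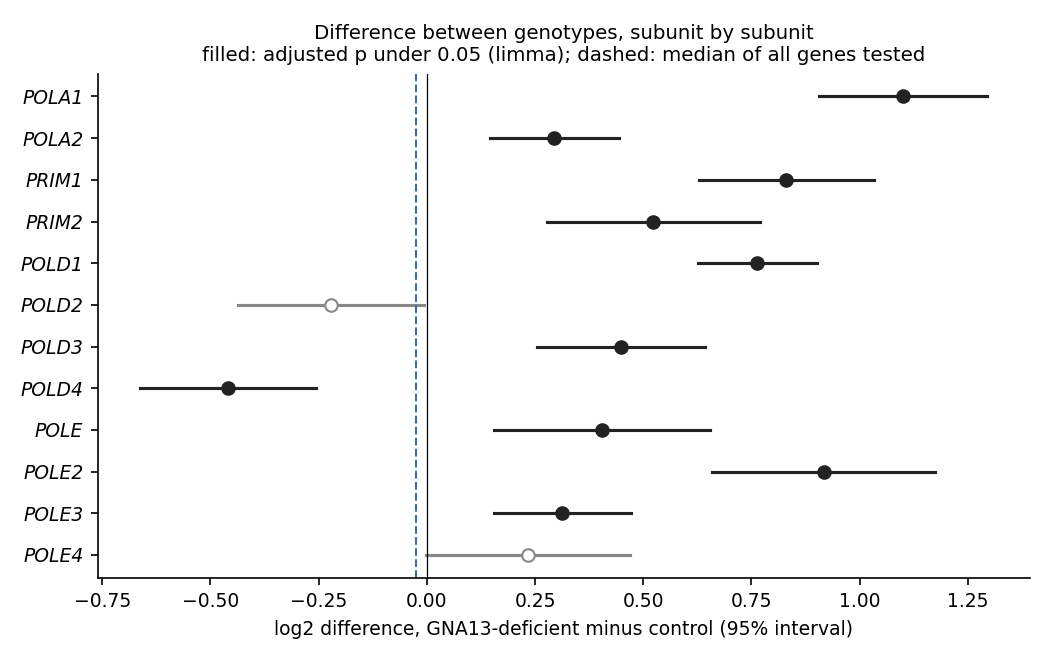
Log2 difference, GNA13-deficient minus control (horizontal axis), for each of the 10 members and for POLD4 and POLE4, with lines for 95% intervals from limma and filled points for an adjusted p under 0.05. The intervals of POLA1 (0.91 to 1.30) and POLA2 (0.15 to 0.44) do not overlap, and POLD2 and POLD4 lie left of 0.

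Polymerase ε rose in all 3 members, most in POLE2 and less in POLE and POLE3. POLE2, the second subunit, which ties the polymerase to the replicative helicase (Entrez 5427; chr14:50110273-50155140, minus strand), was the member with the fewest reads, and its log2 values were 8.61 and 8.55 in the control libraries and 9.40 and 9.60 in the GNA13-deficient libraries. The difference was 0.92 (standard error 0.10, adjusted p = 0.00428 from limma). POLE, the catalytic and proofreading subunit (Entrez 5426; chr12:133200339-133263962, minus strand), had 11.40 and 11.42 against 11.94 and 11.68. The GNA13-deficient libraries differed from each other by 0.26, the widest replicate gap of any member, and the difference of 0.40 (standard error 0.10) had the highest adjusted p of those that passed, 0.0350 from limma. POLE3, a histone-fold subunit that is also part of a chromatin remodeling complex (Entrez 54107; chr9:116169515-116172955, minus strand), had 12.88 and 12.97 against 13.22 and 13.26. Its rise of 0.31, with a standard error of 0.06 and an adjusted p of 0.0207 from limma, did not pass with quantile normalization, at 0.18 (adjusted p = 0.0551).

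POLE4, the histone-fold partner of POLE3 and not among the 10, had log2 values of 9.70 and 9.67 in the control libraries and 9.81 and 10.02 in the GNA13-deficient libraries. Its difference of 0.23 (95% interval -0.0024 to 0.47) did not pass the test (adjusted p = 0.121 from limma). It passed with median centring, at 0.44 (adjusted p = 0.0294), and was 0.13 without GNA13-deficient replicate 2. The log2 ratio of POLE2 to POLE was -2.78 and -2.87 in the control libraries and -2.55 and -2.08 in the others. Its ranges were separate, as were those of 65.3% of single genes tested, and the exact permutation test gave its lowest possible p, 0.333. The ratio of POLE to POLE3, at -1.48 and -1.55 against -1.27 and -1.57, overlapped. Per transcript length POLE3 was the most abundant, at 3542 ± 167 normalized reads per kb (SD, n = 2) in control and 4399 ± 84.1 in GNA13-deficient libraries, ahead of POLE4 at 749 ± 11.02 and 884 ± 92.5. POLE at 348 ± 4.77 lay above POLE2 at 227 ± 7.11 in control, but in the GNA13-deficient libraries, at 462 ± 58.5 and 429 ± 42.8, they overlapped.

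Some members share their locus with another gene. The start of POLE lies 245 bases from that of PXMP2, a peroxisomal membrane protein gene on the other strand, and the start of POLE3 lies 72 bases from that of C9orf43. These neighbors were chosen by position after the members' values were seen. PXMP2 had log2 values of 9.02 and 9.27 in the control libraries and 9.43 and 9.72 in the GNA13-deficient libraries, a difference of 0.42 close to that of POLE, but its adjusted p was 0.0826 from limma. PXMP2 passed with the filter at the median level (adjusted p = 0.0163), quantile normalization (adjusted p = 0.0434) and median centring (adjusted p = 0.0359), and its difference ran from 0.28 to 0.57 with 1 library left out, lowest without GNA13-deficient replicate 2. C9orf43, with 29 to 36 reads per library, had an uncertain difference of 0.29 with a standard error of 0.27 and an adjusted p of 0.481 from limma. C9orf43 shares 104 exonic bases with POLE3 on the opposite strand. PRIM1 shares 139 with NACA on the same strand and 132 with HSD17B6 on the opposite strand. Gene models without a symbol share same-strand exonic bases with POLA2 (2012), PRIM2 (836), POLD1 (426) and PRIM1 (362) and, outside the 10, with POLD4 (650). How reads from shared bases were counted is not known, and whether the counting used strand is not given in the sources used here.

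The other genes of the replication fork were then compared with the polymerases. This list of 42 genes held the sliding clamp and its loaders, the single-strand binding protein RPA, the CDC45-MCM-GINS helicase, lagging-strand nucleases and ligase, and origin-firing factors. Of these, 34 rose and 1 fell, with an adjusted p under 0.05 from limma, against the same background of 13.1% for rises and 16.6% for falls. That background includes genes of low level. In the fit of the 8473 genes at or above the median level, 37 of the 42 rose and 1 fell, against 26.3% of those genes that rose. The median difference was 0.67, with a range from -0.55 to 1.03. The largest changes were those of GINS4, at 1.03 (standard error 0.08), and GINS2, at 0.95 (standard error 0.10), which belong to the helicase, and of DSCC1, a subunit of an alternative clamp loader, at 0.90 (standard error 0.07). The 1 gene that fell was TICRR, an origin-firing factor listed as C15orf42, by 0.55 (adjusted p = 0.00754 from limma); it was named after its values were seen. A list of 17 genes covered the DNA polymerases of repair, translesion synthesis, mitochondria and antigen receptor joining, with some accessory and polymerase-interacting proteins. Of these, 3 rose (17.6%) and 3 fell, near the background of 13.1% for rises and 16.6% for falls, 11 did not pass, and the median was 0.08. Of those that rose, REV1, a translesion polymerase (0.42), has polymerase activity, while MAD2L2 and the polymerase δ-interacting protein POLDIP2 (0.32) do not; REV1, POLDIP2 and POLM (-0.51), the gap-filling polymerase that fell beside DNTT and POLL, were named after their values were seen. MAD2L2, an accessory subunit of polymerase ζ, rose by 0.74 (standard error 0.09). DNTT, the terminal transferase that adds nucleotides at antigen receptor junctions, had log2 values of 8.49 and 8.34 in the control libraries and 7.27 and 7.13 in the GNA13-deficient libraries, and its limma difference was -1.22 with a standard error of 0.13 and an adjusted p of 0.00390. POLL, a gap-filling polymerase of end joining, fell by 0.95 (standard error 0.13). Differences between the lists were not tested.

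**Figure D4:**
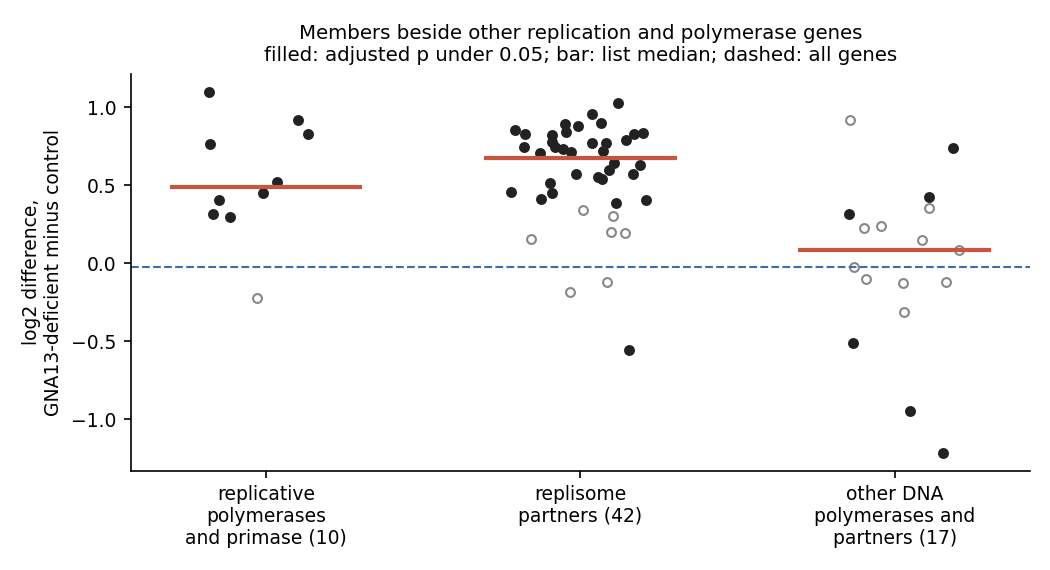
Log2 difference, GNA13-deficient minus control (vertical axis), of each gene in the 10 replicative polymerase and primase genes, the 42 replisome partners and the 17 genes of other DNA polymerases and their partners, with filled points for an adjusted p under 0.05, red bars for list medians (0.49, 0.67 and 0.08) and a dashed line at the median of all genes tested. The first pair of lists lies mostly above 0, and the last list lies on both sides of it.

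Genes of another cell cycle phase moved with the members. Of 20 G2/M genes, 19 rose and 1 (CCNB2) fell with an adjusted p under 0.05 from limma, against 13.1% and 16.6% of all genes tested. In the fit of genes at or above the median level, 26.3% of the genes tested rose. The G2/M genes had a median difference of 0.73, and their summed reads were 55669 and 54882 in the control libraries and 95545 and 91265 in the GNA13-deficient libraries. In bulk RNA, more cells in S and G2 and more RNA per cell cannot be told apart. The genes whose profile over the 4 libraries, centred on the gene's mean, lay nearest to the median profile of the members were ABCB10, CENPO and CENPN, at Euclidean distances of 0.021, 0.023 and 0.023 log2 units among 8463 genes at or above the median level. With 4 libraries this likeness is a description.

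The direction of each member held under every setting tried. Differences of POLA1 lay between 1.01 and 1.31, those of POLE2 between 0.82 and 1.13 and those of POLA2 between 0.24 and 0.50. POLA1 had the largest difference of the members under every setting except quantile normalization, where POLE2 had 1.03 and POLA1 1.02. The test depended more on the settings. Without the filter on low values 3 members rose (POLA1, POLD1 and PRIM1), against 3.25% of all genes, and without the variance trend 4 did (these and POLE2), against 5.82%. With quantile normalization 8 rose, against 16.2% of all genes, and 9 rose with voom (11.2%), with the filter at the median level (26.3%) and with median centring (25.4%). Of all calls, 44.03% were rises as deposited and 69.14% after median centring, which moved the median of all genes from -0.02 to 0.18. With any 1 library left out, whether control replicate 1 or 2 or GNA13-deficient replicate 1 or 2, limma called 0 members and 0 of all genes at an adjusted p under 0.05. At an unadjusted p under 0.05 these fits called 8 or 9 members and between 5257 and 5600 of all genes. A fit of 3 libraries assumes that the lone library varies like those of the other genotype.

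**Figure D5:**
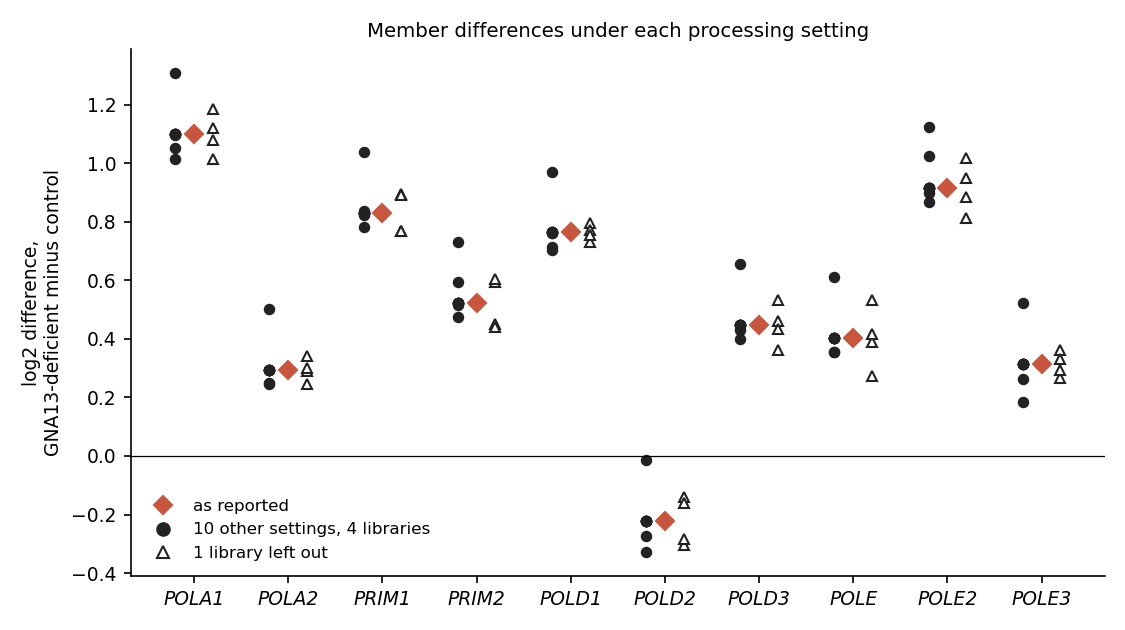
Log2 difference, GNA13-deficient minus control (vertical axis), of each member as reported (red diamonds), under 10 other settings on all 4 libraries (black circles) and with 1 library left out (open triangles). No point crosses 0 for any member; for POLD2 the highest is -0.014, with median centring.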

How the data were processed

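RNA from NUDUL1 cells was sequenced with a poly(A)-based stranded kit, with 2 libraries per genotype. Alignment by the authors was to hg19, with STAR; the submitters' processing notes name HTSeq, and the normalization method and annotation are not given in the sources used here. The authors deposited normalized log2 values per gene, with 1 row of linear library totals that was used only for depth. On the linear scale all nonzero values up to 400 reads were whole reads times a constant per library (tolerance 0.05 reads plus rounding), and the recovered reads were used for depth and for voom.

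Log2 values were used as deposited. Limma 3.58.1 in R 4.3.3 (lmFit, eBayes with trend, genotype as the only term) was fitted to the 16945 genes above 0 in at least 2 libraries, with Benjamini-Hochberg adjustment over all of them and a threshold of 0.05. A listed 0 in control replicate 2 can stand for 1 read, so the filter is stricter for it. The pipeline was run on simulated data in which far fewer genes changed than were called here, so that run does not show how reliable these calls are. Nothing states that replicates came from separate cultures, so p values measure the spread between these libraries.

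Positions and canonical transcript lengths are from GENCODE v44 lifted to GRCh37, the assembly of hg19. Gene lists were written from general knowledge and matched through current or older symbols. Members and lists were chosen with earlier results of these data known. Named genes were all members, POLD4, POLE4, GNA13, the 3 largest significant changes of the replisome and other polymerase lists, and the 3 genes nearest in profile. PXMP2 and C9orf43 were added for their position. Alternatives were other filters, pseudocounts of 1 and 10, quantile normalization, median centring, the replicate block, other variance priors, voom, and leaving out each library.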

Additional observations from a re-analysis of the deposited data

How the results depend on the processing

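Without the filter, 3 members, 18 replisome partners and 1 gene of the other polymerase list passed, and without the variance trend 4 members and 3 genes of that list, against 9, 35 and 6 as reported; over all genes these settings called 1999 and 2718, against 5037. The cause was not tested. Median centring moved the members' median difference to 0.69. Leaving out 1 library gave 0 calls in each of the 3 counts in all 4 fits, from 3 libraries with 1 residual degree of freedom fewer, and medians from 0.43 to 0.57. With the replicate block, which no source supports as a pairing (same-numbered libraries deviated with a correlation of 0.453 over 8473 genes), 10 members passed, 9 as higher and POLD2 as lower, and so did 6616 of all genes, 3053 of them as higher. No member changed direction, nor did POLD4, POLE4, GNA13, PXMP2, C9orf43 or the genes named by rule; TICRR, BCL6, CCNB2, REV1, POLDIP2 and POLM were not followed singly across settings. Over the settings with 4 libraries, 84 of the members' values kept their side of the threshold, 12 became weaker and 4 stronger.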
